A study of Mus musculus with 32 samples.

Results

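Ribosome-bound RNA of spinal cholinergic neurons was compared between male mice of 24 months (5 libraries) and male mice of 12 months (4 libraries). These 9 libraries were chosen by the sex and age in their labels, out of 32 deposited libraries, and no measured value entered the choice. All mice were Chat-Cre;RiboTag animals, in which Cre from the choline acetyltransferase gene switches on a haemagglutinin-tagged ribosomal protein L22 (HA-Rpl22). Ribosomes carrying the tag were pulled down from whole spinal cord and the RNA on them was sequenced and counted per gene. The 2 groups had the same genotype and tissue, received no treatment that the labels name and differed by age in their labels. The study kept its mice on a mixed genetic background. The library identifiers open with a number that no 12-month library shared with a 24-month library. What that number marks is not stated, and its part cannot be told apart from age. The tag marks every cell that makes Chat, so that motor neurons were pooled with other cholinergic neurons of the cord and RNA from other cells can be carried along by the precipitate. Every library is listed as a separate sample, and p-values measure the spread between these samples. Of 54232 gene identifiers, 17481 averaged 5 counts or more in the 31 libraries of the 7 groups with replicates, and these were tested with edgeR's quasi-likelihood method. Values below are counts normalized for library size with TMM, given in the order of the replicate numbers, and a log2 fold change is 24 over 12 months.

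Spinal motor neurons carry the command for movement from the cord to muscle over axons that leave the central nervous system. When such an axon is cut or loses its target, the neuron switches on a regeneration program led by the transcription factors Atf3, Jun and Stat3. Microglia, the resident macrophages of the cord, respond to damage and to age by entering a disease-associated state, in which genes for phagocytosis and lipid handling such as Gpnmb, Clec7a, Itgax and Cst7 come on.

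Total counts per library were between 14593523 and 30959661 at 12 months and between 16201050 and 26908617 at 24 months. The motor neuron and cholinergic markers were present in all 9 libraries. Slc18a3, the vesicular acetylcholine transporter, was at 14901, 14926, 12284 and 16710.2 at 12 months and 13177, 14225, 16018, 19058 and 12634 at 24 months, and Prph, the neurofilament peripherin, was at 44061, 27494, 28771 and 36480.5 at 12 months and 35605, 39855, 33543, 30754 and 45312 at 24 months. Chat was at 150.4, 688, 787 and 1015 at 12 months and 683, 979, 1285, 1927 and 491 at 24 months. Reads of Chat were thus present in every library, and how far the precipitate enriched cholinergic RNA was not tested. The lowest Chat was that of 12-month replicate 1. That library stood apart from its group in other ways. Its counts differed from those of the other 12-month libraries by a mean chi-square per gene of 93 to 123, against 8.84 to 10.2 among the other 3, and its counts ran toward short transcripts, with a slope on log2 transcript length of -0.171 against -0.0304 to -0.00531. Replicate 1 of 24 months stood apart through microglial RNA, with 10652 summed normalized counts over 15 microglial markers against 1226 to 1905 in the other 4. By the chi-square, pairs of 24-month libraries lay between 10.3 and 52.3, and the 2 highest values were those of replicate 5 with replicates 3 and 4, so that replicate 1 did not stand furthest out by that measure. Without replicate 5, Flnc, the gene called below, had a log2 fold change of 2.42 (edgeR adjusted p = 0.00346). Results are therefore also given without these libraries.

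Of 17481 tested genes, 1 (0.00572%) passed an adjusted p of 0.05 in edgeR's test. It was Flnc, filamin C (ENSMUSG00000068699, chr6:29433256-29461883, plus strand), an actin cross-linker best known from muscle, where it holds the sarcomere at the Z-disc and is drawn to sites of mechanical damage. Flnc was at 31.1, 17.0, 17.4 and 17.0 normalized counts in the 4 libraries of 12 months and at 101, 99.98, 70.4, 176 and 99.5 in the 5 of 24 months. The ages did not overlap, and replicate 4 was the highest of the old males. Flnc rose by a log2 fold change of 2.39 (SE 0.33, edgeR adjusted p = 0.00155), which is 5.23-fold. Males of 3 months had a mean of 18.4 and those of 18 months 36.6. The rise was called in all 9 fits that left out 1 library, with log2 fold changes of 2.15 to 2.65, and it was 2.69 without both libraries that stood apart. A model of only the 9 libraries, which estimates the spread from fewer samples, gave the same log2 fold change with an edgeR adjusted p of 0.0939, so that the call was lost. Library totals fell into 2 ranges, and within the higher one (3 libraries of each age) the log2 fold change was 2.04 with an edgeR adjusted p of 0.337, so that the call was not made there either. The lower range held 1 library of 12 months and gave no value. The related Flna, filamin A, was at 82.7, 16.3, 47.8 and 28.1 at 12 months and 111, 89.5, 67.2, 104 and 47.8 at 24 months (log2 fold change 0.95, adjusted p = 0.356 in edgeR). Its 12-month replicate 1 lay far above 12-month replicates 2 and 4, and the ages overlapped. Flna was named after its values were seen, as were Flnc, Vax2, Gata2, Lhx2, Dmrt2, En1, Gpnmb, Clec7a, Cst7, Trem2, Tnfrsf1b and H2-Q6.

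Below the threshold the test left many genes with small p. An unadjusted p under 0.05 was reached by 2126 genes, 12.2% of those tested, with 1097 (6.28%) higher and 1029 (5.89%) lower at 24 months. Without 12-month replicate 1, 786 (4.5%) were higher and 569 (3.26%) lower by the same rule, without 24-month replicate 1 these were 993 (5.69%) and 1040 (5.95%), and without both libraries that stood apart 730 (4.19%) and 549 (3.15%). The ages did not overlap in 472 genes (2.7%) that were higher and in 340 (1.94%) that were lower. The median log2 fold change over all genes was 0.02, and 53.9% of genes were above 0. The DESeq2 Wald test, which the study used, called 154 genes (92 higher, or 0.571%, and 62 lower, or 0.385%), and limma voom with sample quality weights called 396 (270 higher, or 1.54%, and 126 lower, or 0.721%). Of these, 119 were called by both, which is 77.3% of the DESeq2 calls and 30.1% of the voom calls, and 104 of the 119 had ages that did not overlap.

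**Figure D1:**
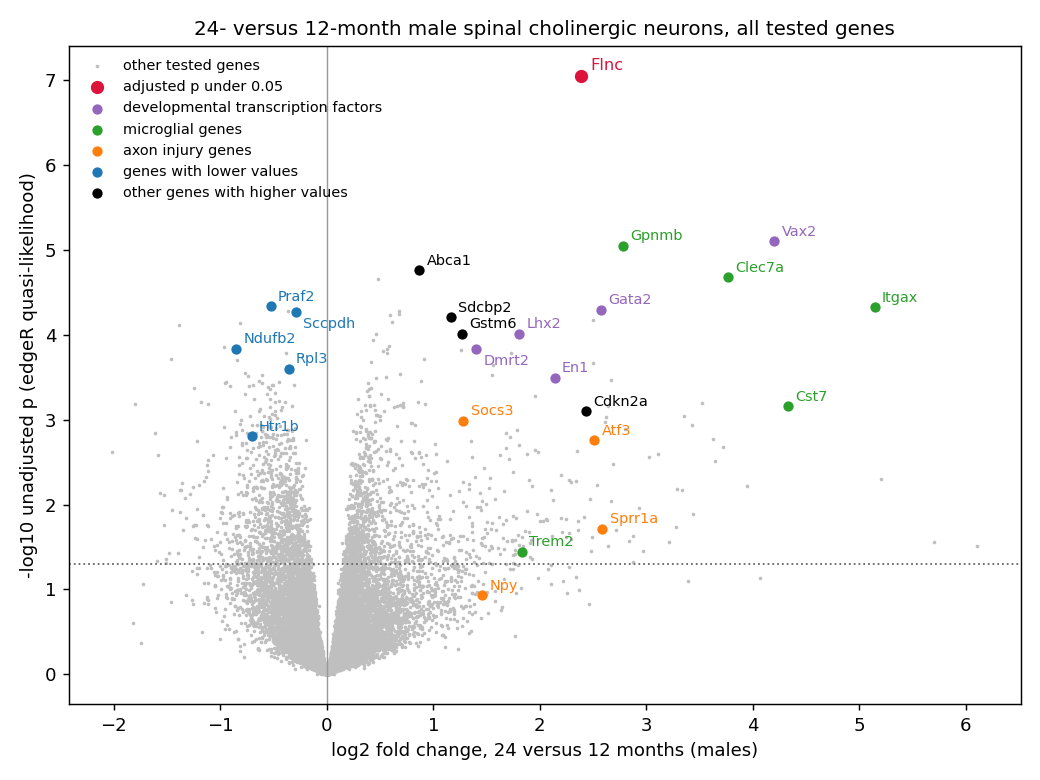
Each point is 1 of the 17481 tested genes, with its log2 fold change (24 versus 12 months, males) on the x axis and the -log10 of its unadjusted p in edgeR's test on the y axis. The dotted line marks the unadjusted threshold of 0.05. Flnc stands above the rest, Vax2, Gpnmb, Clec7a and Itgax follow at larger fold changes, and the genes with the smallest p on the lower side lie at log2 fold changes nearer to 0.

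Among genes that averaged 50 counts or more and whose ages did not overlap, the 12 with the smallest p on the higher side had log2 fold changes of 0.44 to 1.27. In edgeR their adjusted p ran from 0.0635 to 0.0874, so that no member passed, while the DESeq2 Wald test and voom called all 12. Abca1, which moves cholesterol and phospholipid out of cells onto apolipoproteins, led them (ENSMUSG00000015243, chr4:53030787-53159895, minus strand). Abca1 was at 209, 194, 262 and 288 normalized counts in the 4 libraries of 12 months and at 361, 471, 358, 545 and 439.9 in the 5 of 24 months. Its log2 fold change was 0.87 (SE 0.17, edgeR adjusted p = 0.0635). Gstm6, a glutathione S-transferase of the mu class, was at 59.6, 60.3, 78.3 and 65.6 at 12 months and 206, 145, 187, 124 and 129 at 24 months, and its log2 fold change was 1.27 (SE 0.28, edgeR adjusted p = 0.0773). Sdcbp2, a PDZ adaptor of the syntenin family, was at 44.5, 52.5, 56.5 and 53.7 at 12 months and 115, 99.98, 94.9, 166 and 104 at 24 months, and its log2 fold change was 1.16 (SE 0.25, edgeR adjusted p = 0.07). The rule chose only genes whose ages did not overlap, so that the separation of these 3 genes is not a further result. Il4ra, the receptor chain for interleukins 4 and 13, had a log2 fold change of 0.52. The guanine nucleotide exchange factor Rasgrf2 was at 0.57, the GTPase-activating protein Arhgap23 at 0.44, and the polarity scaffold Dlg5 at 0.61. The centrosomal anchor Nin was at 0.68, Fam129b at 0.68, the myotubularin-related pseudophosphatase Mtmr12 at 0.46, the odorant receptor gene Olfr920 at 0.59 and the uncharacterized 9930104L06Rik at 0.59. All 12 kept an unadjusted edgeR p under 0.05 without both libraries that stood apart and within the higher range of totals. The 12 were chosen by their p in these same libraries. These fits and the calls of the other tests are therefore not independent of the choice. In all, 6 of the 12 share exon sequence with another gene, Nin, Fam129b, 9930104L06Rik, Dlg5, Arhgap23 and Il4ra, and their counts are uncertain for that reason.

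Axon injury genes were higher at 24 months without passing the edgeR threshold. Atf3 was at 104, 213, 39.1 and 35.8 normalized counts in the 4 libraries of 12 months and at 369.5, 418, 242, 1117 and 707 in the 5 of 24 months (ENSMUSG00000026628, chr1:191170296-191218039, minus strand). The lowest old male (replicate 3) lay above the highest 12-month male (replicate 2), and Atf3 had a log2 fold change of 2.51 (SE 0.72, edgeR adjusted p = 0.141). Sprr1a, a cornified-envelope protein that injured neurons make and that promotes axon growth, was at 97.0, 316, 15.9 and 43.4 at 12 months and 520.1, 466, 334, 1274 and 1051 at 24 months (ENSMUSG00000050359, chr3:92483952-92485895, minus strand). Its ages did not overlap either, and its log2 fold change was 2.59 (SE 1.04, edgeR adjusted p = 0.303). In both genes 12-month replicate 2 was far above replicates 3 and 4, so that the 12-month males spread over a wide range. Npy, a neuropeptide that sensory neurons make after nerve injury, was at 179.7, 235, 26.1 and 17.9 at 12 months and 190.3, 118, 142, 487 and 669 at 24 months, where the ages overlapped (log2 fold change 1.46 (SE 0.90, edgeR adjusted p = 0.544)). Socs3, the feedback inhibitor of Jak and Stat signaling, was at 29.4, 40.4, 27.5 and 44.3 at 12 months and 59.1, 101, 56.2, 129.8 and 90.6 at 24 months. Every old male was above the 12-month males, with a log2 fold change of 1.28 (SE 0.35, edgeR adjusted p = 0.136). Stat3 was at 3241, 3478, 3563 and 3587 at 12 months and 3834, 4278, 4370.4, 5757 and 4733 at 24 months, again without overlap, and its log2 fold change was 0.41 (SE 0.11, edgeR adjusted p = 0.121). Jun was at 3246, 2965, 3122 and 4069.6 at 12 months and 4027, 4149, 3851, 5297 and 4675 at 24 months, with a log2 fold change of 0.39 (SE 0.11, edgeR adjusted p = 0.141), and 12-month replicate 4 lay above old replicate 1 and replicate 3. Both Stat3 and Jun share exon sequence with a neighbor, Stat5a and Junos. The DESeq2 Wald test called Atf3 (adjusted p = 0.0462), Socs3 (0.0402) and Stat3 (0.0428) and did not call Jun (0.0578) or Sprr1a (0.2).

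Over the list of axon injury and regeneration genes, 30 of 38 tested members had a log2 fold change above 0, 8 of them with an unadjusted p under 0.05, 2 had such a p in the lower direction, and the median log2 fold change was 0.38. The same shares over all genes were 53.9% above 0, 6.28% and 5.89%, with a median of 0.02. The median of the list was 0.42 without both libraries that stood apart and 0.22 without 24-month replicate 5, where 24 of 38 were above 0. The 2 members with a small p in the lower direction were the galectin Lgals1 (-0.67) and the growth-cone protein Basp1 (-0.34). Gap43, the classical growth-cone marker, was at 3102, 3577, 2922 and 2699.7 at 12 months and 2993, 3678, 2739, 3609 and 4516 at 24 months and overlapped (log2 fold change 0.19, adjusted p = 0.824 in edgeR). The growth factor Csf1 (log2 fold change 0.56), the chemokine Ccl2 (2.11) and the urokinase receptor Plaur (1.91) completed the members with a small p on the higher side. Of 9 stress genes that the study named from these mice, all 9 were above 0 with a median of 1.46, and 3 had a p under 0.05 (Atf3, Sprr1a and the intermediate filament Vim). The study chose that list on these samples, so that its direction is not independent evidence. Vim was at 304, 245, 159 and 157 at 12 months and 725, 476, 397, 601 and 479.7 at 24 months, without overlap, and its log2 fold change was 1.30 (SE 0.47, edgeR adjusted p = 0.245). The median of these 9 genes was 2.08 without 12-month replicate 1 and 0.73 without 24-month replicate 1.

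The promoters of 5 of these genes are shown because AP-1, the dimer of Jun and Fos family proteins with which Atf3 can pair, acts through a known short motif. The sequences are the 250 bases before the start that RefSeq gives (GRCm38.p6), written 5′ to 3′ on the strand of the gene, and capitals mark a match on either strand to the AP-1 motif TGANTCA, to the cAMP response element TGACGTCA or to the E-box TCACGTG.
Sprr1a (chr3:92485882-92486131, minus strand): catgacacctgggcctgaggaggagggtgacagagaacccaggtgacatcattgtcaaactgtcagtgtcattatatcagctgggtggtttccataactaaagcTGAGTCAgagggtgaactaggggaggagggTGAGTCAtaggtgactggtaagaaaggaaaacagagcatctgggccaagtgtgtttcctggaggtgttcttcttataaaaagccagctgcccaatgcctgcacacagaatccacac
Atf3 (chr1:191183334-191183583, minus strand): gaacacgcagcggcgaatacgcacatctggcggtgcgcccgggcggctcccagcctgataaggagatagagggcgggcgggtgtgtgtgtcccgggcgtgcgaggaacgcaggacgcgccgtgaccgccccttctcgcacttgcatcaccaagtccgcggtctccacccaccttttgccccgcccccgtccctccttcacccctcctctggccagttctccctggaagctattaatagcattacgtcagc
Flnc (chr6:29432903-29433152, plus strand): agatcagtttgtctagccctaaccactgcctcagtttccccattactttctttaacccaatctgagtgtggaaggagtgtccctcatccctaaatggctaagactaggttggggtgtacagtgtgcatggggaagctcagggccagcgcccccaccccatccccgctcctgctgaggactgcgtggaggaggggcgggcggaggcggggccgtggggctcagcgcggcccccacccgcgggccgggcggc
Itgax (chr7:128129300-128129549, plus strand): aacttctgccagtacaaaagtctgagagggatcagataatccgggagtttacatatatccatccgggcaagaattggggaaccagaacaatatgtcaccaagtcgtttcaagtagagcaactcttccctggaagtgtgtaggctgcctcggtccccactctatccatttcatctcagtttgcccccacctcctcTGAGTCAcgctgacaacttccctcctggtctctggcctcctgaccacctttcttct
En1 (chr1:120602237-120602486, plus strand): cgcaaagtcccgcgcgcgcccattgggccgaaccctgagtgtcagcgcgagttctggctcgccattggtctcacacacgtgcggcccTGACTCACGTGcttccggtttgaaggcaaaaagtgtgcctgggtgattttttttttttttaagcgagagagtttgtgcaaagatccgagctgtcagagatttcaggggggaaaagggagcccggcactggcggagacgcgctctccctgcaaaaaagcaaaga
Sprr1a held 2 matches to the AP-1 motif, which begin 146 and 116 bases before the start, and Itgax held 1 that begins 56 bases before it. En1 held an AP-1 match that begins 163 bases before the start and overlaps an E-box match. The window of Atf3 and that shown for Flnc, for which RefSeq lists another start downstream, held no match to the 3 motifs. The AP-1 motif was in 6.75% of the 32851 promoters of the table and in 5.71% of the 12177 tested genes found in it. It was in 5 of the 33 axon injury genes found (15.2%) and in 4 of the 28 disease-associated microglial genes found (14.3%). The cAMP response element was in 2.94% of tested genes and in 0 genes of either list, and the E-box was in 5.49% of tested genes, in 1 of the 33 and in 3 of the 28. A match is a description of the letters and was not tested for binding.

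Cdkn2a, which encodes the cell cycle inhibitors p16 and p19Arf and is a marker of senescence, was at 126, 62.4, 68.1 and 78.4 at 12 months and 261, 522, 252, 557 and 683 at 24 months (ENSMUSG00000044303, chr4:89274471-89294653, minus strand). The lowest old male had 252 normalized counts and the highest 12-month male 126, so that the ages were apart. Its log2 fold change was 2.43 (SE 0.65, edgeR adjusted p = 0.124), and the DESeq2 Wald test gave an adjusted p of 0.0348 and voom one of 0.00152. Males of 18 months were at a mean of 183, with 1 library within the range of the old males. Its neighbor Cdkn2b, which encodes p15, was at 41.8, 55.3, 55.1 and 53.7 at 12 months and 86.8, 89.5, 81.5, 55.6 and 67.7 at 24 months, with a log2 fold change of 0.57 (SE 0.22, edgeR adjusted p = 0.291). The rest of the p53 and senescence list did not follow: 14 of 22 tested members had a log2 fold change above 0, 3 of them with an unadjusted p under 0.05, 0 had such a p in the lower direction, and the median log2 fold change was 0.06. The third of the 3 was the chemokine Cxcl1 (1.84), which had 0 to 3.41 normalized counts at 12 months. Over all genes, 53.9% were above 0 and 6.28% had an unadjusted p under 0.05 on the higher side.

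**Figure D2:**
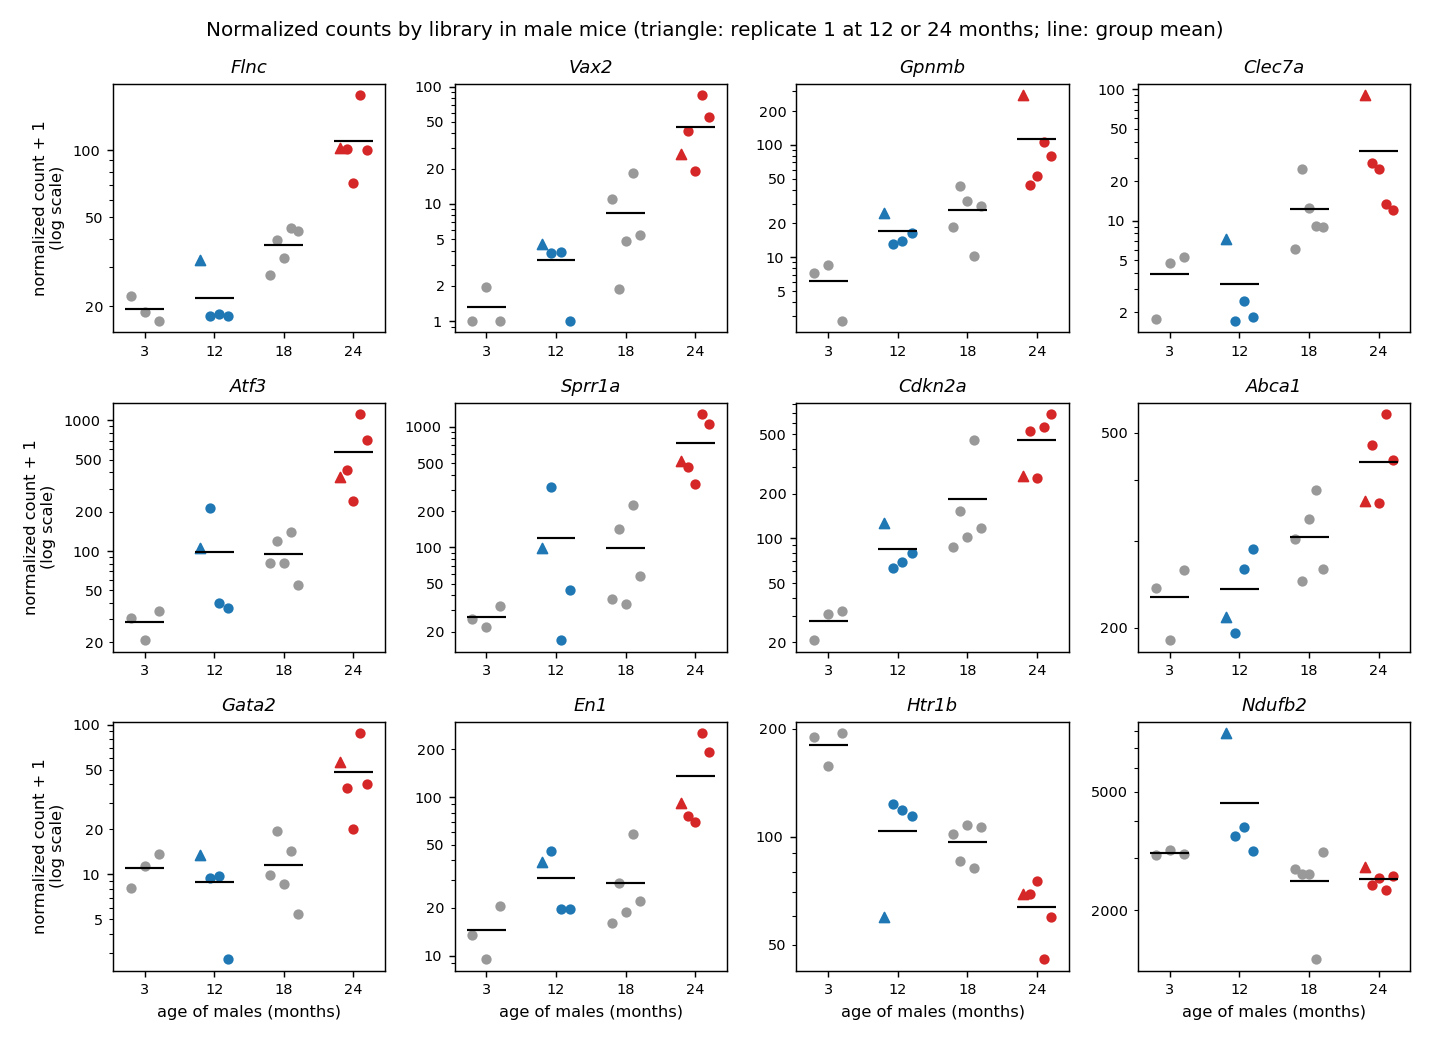
Normalized count plus 1 (log scale, y axis) of 12 genes in each library of male mice by age in months (x axis). Blue points are 12 months, red points 24 months and grey points the other ages. Triangles are replicate 1 of 12 and of 24 months, and lines are group means. In the panels from Flnc to En1 every red point lies above every blue point. In Htr1b and Ndufb2, 12-month replicate 1 lies outside the other 3 blue points.

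Genes of microglia had higher values in the old males, with 1 library far above the rest. Gpnmb, a lysosomal glycoprotein of phagocytes, was at 24.0, 12.1, 13.04 and 15.3 at 12 months and 278, 43.4, 52.2, 106 and 79.6 at 24 months (ENSMUSG00000029816, chr6:49036546-49070929, plus strand), with a log2 fold change of 2.79 (SE 0.51, edgeR adjusted p = 0.0517). Clec7a, the beta-glucan receptor dectin-1, was at 6.23, 0.709, 1.45 and 0.852 at 12 months and 89.6, 26.3, 23.7, 12.4 and 10.9 at 24 months (ENSMUSG00000079293, chr6:129461591-129472779, minus strand), with a log2 fold change of 3.77 (SE 0.74, edgeR adjusted p = 0.0635). In both genes the ages did not overlap, and 24-month replicate 1 was far above the other old males. Without that library the log2 fold change was 2.11 for Gpnmb and 2.93 for Clec7a, and without both libraries that stood apart 2.38 and 4.13. Itgax, the integrin subunit CD11c, had 1 read in all 4 libraries of 12 months and 62 in the 5 of 24 months (ENSMUSG00000030789, chr7:128129547-128150657, plus strand). The ratio after scaling was 55.4, with an exact counting interval of 9.58 to 2223 at 95%. Cst7, the cathepsin inhibitor cystatin F, had 3 reads at 12 months and 82 at 24 months, and the ratio was 24.4 with an interval of 8.07 to 120.9. These intervals cover counting error only. Replicate 1 held 32.3 of Itgax and 52.7 of Cst7 in normalized counts, while the other old males lay between 5.97 and 7.89 and between 3.98 and 9.21. Both genes were detected in all 5 old males and in at most 2 of the 4 males of 12 months. Whether Clec7a, Itgax and Cst7 would pass the count filter without the old males was not determined.

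Over 15 general microglial markers, 15 of 15 tested members had a log2 fold change above 0, 5 of them with an unadjusted p under 0.05, 0 had such a p in the lower direction, and the median log2 fold change was 1.67. The same shares over all genes were 53.9% above 0 and 6.28% with such a p on the higher side. The share with such a p on the higher side was 5.69% without 24-month replicate 1 and 4.19% without both libraries that stood apart. Without 24-month replicate 1, 11 of 15 were above 0, 0 on the higher and 0 on the lower side had such a p, and the median was 0.29, and without both libraries that stood apart, 12 of 15 were above 0, 2 on the higher and 0 on the lower side had such a p, and the median was 0.86. The summed normalized count of the list was 2681, 1082, 1241 and 1086 at 12 months and 10652, 1905, 1713, 1226 and 1591 at 24 months, and all 15 markers had reads at both ages. Trem2, a lipid receptor that the disease-associated state requires, was at 81.0, 16.3, 27.5 and 23.0 at 12 months and 437, 68.4, 71.2, 32.1 and 45.8 at 24 months, with a log2 fold change of 1.83 (SE 0.83, edgeR adjusted p = 0.367). Its signaling partner Tyrobp was at 49.8, 9.93, 18.8 and 17.0 at 12 months and 274, 44.7, 27.7, 18.5 and 26.9 at 24 months (1.72 (SE 0.87, edgeR adjusted p = 0.429)). C1qa, a chain of the first complement component, was at 357, 117, 115 and 108 at 12 months and 1944, 216, 213, 153 and 242 at 24 months (1.67 (SE 0.91, edgeR adjusted p = 0.47)). In these 3 genes the ages overlapped through 12-month replicate 1 or low old males. P2ry12 and Tmem119, markers of homeostatic microglia, overlapped as well. P2ry12 had a log2 fold change of 0.89 over all libraries and -0.31 without both that stood apart, and Tmem119 had 0.90 and -0.04. In the list of 37 disease-associated genes, added after values were seen, 30 of 35 tested members had a log2 fold change above 0, 11 of them with an unadjusted p under 0.05, 0 had such a p in the lower direction, and the median log2 fold change was 0.49. Without 24-month replicate 1, 24 of 32 were above 0, 3 on the higher and 0 on the lower side had such a p, and the median was 0.17, and without both libraries, 24 of 32 were above 0, 4 on the higher and 0 on the lower side had such a p, and the median was 0.40. The filter on mean counts was applied anew in each fit. Members no longer tested passed it only with 24-month replicate 1 included, so that the 35 and the 32 are not the same set of genes. The general list thus had the higher median in all 3 fits, and both medians were lowest without 24-month replicate 1. In libraries from a mixed precipitate, more microglia, more RNA in each and more carry-over cannot be told apart. The part of microglial RNA in the other differences was not tested.

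**Figure D3:**
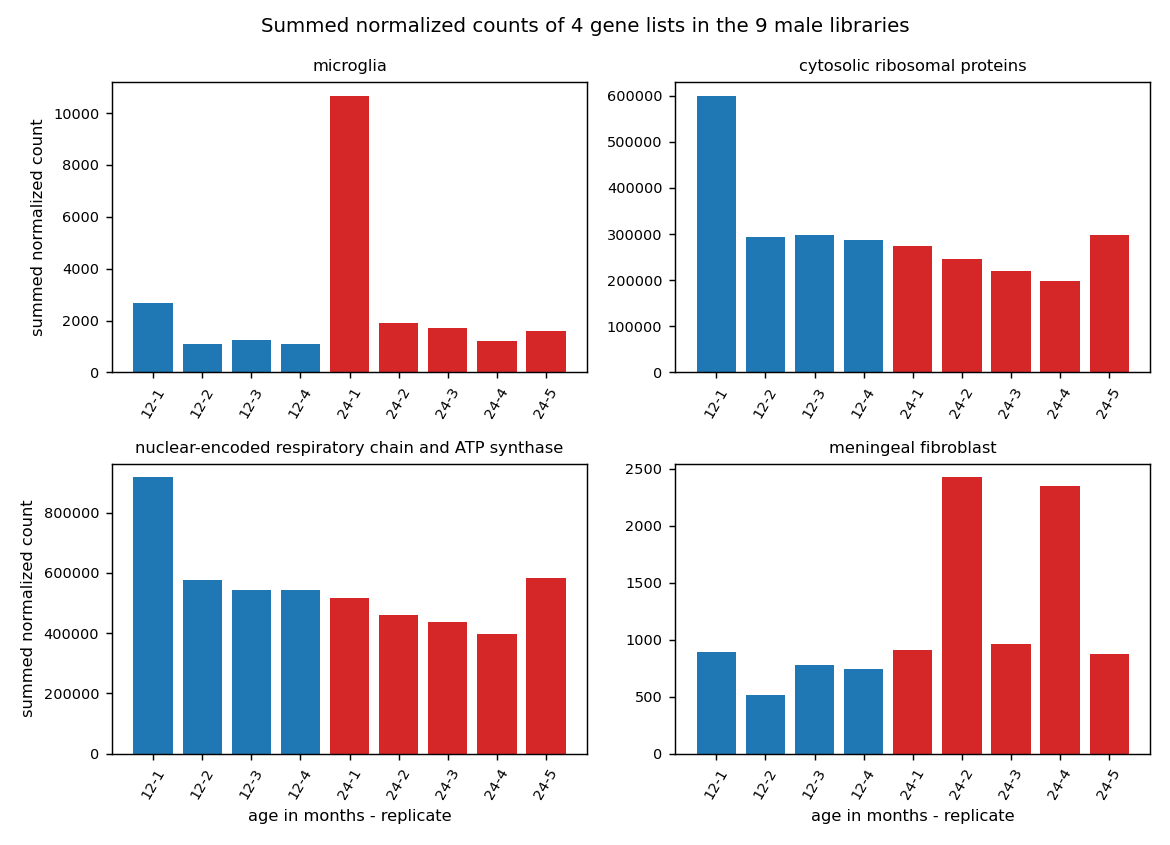
Summed normalized counts (y axis) of 4 gene lists in each of the 9 libraries, named by age in months and replicate (x axis). Blue bars are 12 months and red bars 24 months. Replicate 1 of 24 months has the highest microglial sum, replicate 1 of 12 months the highest sums of ribosomal proteins and of the respiratory chain, and replicates 2 and 4 of 24 months the highest sums of meningeal fibroblast genes.

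Innate immune and antigen presentation genes lay mostly above 0. Without 12-month replicate 1, 4.5% of all genes had an unadjusted edgeR p under 0.05 on the higher and 3.26% on the lower side. These shares were 5.69% and 5.95% without 24-month replicate 1, and 4.19% and 3.15% without both libraries. For complement, 18 of 26 tested members had a log2 fold change above 0, 5 of them with an unadjusted p under 0.05, 0 had such a p in the lower direction, and the median log2 fold change was 0.54, beside 6.28% of all genes on the higher side. Without 24-month replicate 1, 17 of 25 were above 0, 1 on the higher and 1 on the lower side had such a p, and the median was 0.24, and without 12-month replicate 1, 22 of 26 were above 0, 10 on the higher and 0 on the lower side had such a p, and the median was 1.204. The complement member lost without 24-month replicate 1 passed the count filter only with that library included. The list holds 3 of the microglial markers (C1qa, C1qb and C1qc). Apart from Itgax, the members with the smallest p were the anaphylatoxin receptor C3ar1 (log2 fold change 2.29, adjusted p = 0.197 in edgeR) and the complement component C4b (1.16, adjusted p = 0.271). C4b was at 370.1, 87.2, 146 and 141 at 12 months and 801, 316, 354, 368 and 243 at 24 months, where the high 12-month value was that of replicate 1, and without that library its log2 fold change was 1.73. For TREM1 and innate immune signaling, 33 of 39 tested members had a log2 fold change above 0, 17 of them with an unadjusted p under 0.05, 0 had such a p in the lower direction, and the median log2 fold change was 0.33. That is 17 of 39 beside 6.28% of all genes, and 0 members passed the edgeR threshold. Without 24-month replicate 1, 29 of 38 were above 0, 10 on the higher and 1 on the lower side had such a p, and the median was 0.26, and without both libraries, 29 of 38 were above 0, 7 on the higher and 0 on the lower side had such a p, and the median was 0.28. Here too the member lost passed the count filter only with 24-month replicate 1 included. The transcriptional activator of MHC class I genes Nlrc5 was at 9.79, 4.96, 8.70 and 6.82 at 12 months and 20.3, 17.1, 14.2, 47.0 and 12.9 at 24 months, without overlap (1.55 (SE 0.38, edgeR adjusted p = 0.112)). The chemokine Ccl3 was at 0.890, 2.13, 1.45 and 1.70 at 12 months and 26.8, 11.8, 4.75, 3.71 and 4.98 at 24 months, also without overlap (2.64 (SE 0.68, edgeR adjusted p = 0.121)). For interferon response and MHC class I, 29 of 35 tested members had a log2 fold change above 0, 4 of them with an unadjusted p under 0.05, 0 had such a p in the lower direction, and the median log2 fold change was 0.24. That is 4 of 35 beside 6.28% of all genes. Without 24-month replicate 1, 22 of 34 were above 0, 3 on the higher and 0 on the lower side had such a p, and the median was 0.16. Without both libraries, 28 of 34 were above 0, 4 on the higher and 0 on the lower side had such a p, and the median was 0.26. The 3 leading members of this list all serve the loading of peptides on MHC class I. The peptide transporter Tap1 was at 53.4, 31.9, 39.1 and 62.2 at 12 months and 102, 104, 68.8, 95.2 and 73.6 at 24 months (0.92 (SE 0.24, edgeR adjusted p = 0.121)), the heavy chain H2-K1 at 431, 293, 335 and 409 at 12 months and 1026, 973, 502, 628 and 600.1 at 24 months (1.02 (SE 0.31, edgeR adjusted p = 0.154)), and the chaperone Tapbp had a log2 fold change of 0.43. None of the 3 overlapped between ages. H2-Q6, another class I heavy chain, was at 27.6, 24.1, 30.4 and 40.04 at 12 months and 83.1, 130.2, 72.0, 111 and 56.7 at 24 months, and Tnfrsf1b, a receptor of tumor necrosis factor, at 14.2, 18.4, 21.7 and 20.4 at 12 months and 51.7, 51.3, 30.8, 59.3 and 31.8 at 24 months. Both were apart between ages. Class I heavy chains are near-identical and Tap1 shares exon sequence with Psmb9, so that their counts are uncertain.

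Genes of the extracellular matrix and of other cell types varied between old males. In the collagens, 32 of 35 tested members had a log2 fold change above 0, 6 of them with an unadjusted p under 0.05, 0 had such a p in the lower direction, and the median log2 fold change was 0.50. Over all genes, 53.9% were above 0 and 6.28% had such a p on the higher side. Col1a1, the main fibrillar collagen of connective tissue and bone, was at 31.1, 6.38, 31.9 and 34.1 at 12 months and 32.3, 568, 49.0, 543 and 51.7 at 24 months. Replicates 2 and 4 of 24 months were more than 10 times as high as the other old males (log2 fold change 3.28 (SE 1.31, edgeR adjusted p = 0.295)). The same 2 libraries held the highest sums of the meningeal fibroblast list (909, 2426, 960.3, 2353 and 875 at 24 months and 893, 516, 779.8 and 739 at 12 months). Col5a3, a minor fibrillar collagen, was at 14.2, 2.84, 2.90 and 3.41 at 12 months and 17.6, 23.7, 13.4, 18.5 and 8.96 at 24 months (1.44 (SE 0.53, edgeR adjusted p = 0.248)), where 12-month replicate 1 was the exception among the young males. The light chain constant gene Igkc was at 31.1, 7.80, 8.70 and 39.2 at 12 months and 542, 64.5, 283, 14.8 and 116 at 24 months, while the summed list of plasma and B cells was at 1883, 1858, 2032 and 2200.5 at 12 months and at 3304, 1505, 2199, 478 and 1211 at 24 months. Astrocyte markers summed to 25746 to 45761 at 12 months and to 21585 to 43441 at 24 months, and Gfap, their intermediate filament, was at 1762, 1035, 1493 and 1101 at 12 months and 6800.1, 1792, 2267, 1542 and 1402 at 24 months (1.04 (SE 0.59, edgeR adjusted p = 0.498)). Oligodendrocyte markers summed to 18858 to 45386 and to 18339 to 61315. The sums of all 20 cell type lists overlapped between the ages, and every member of 17 of these lists had reads at both ages. The exceptions, all at 12 months, were Bglap2 of the osteoblast list, Atp6v0d2 of the osteoclast list, and Cd3g and Gzmb of the T and NK cell list, which had 0 reads.

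Several developmental transcription factors with low counts at 12 months were higher in every old male. Vax2, a homeobox factor of the ventral eye field, was at 3.56, 2.84, 2.90 and 0 at 12 months and 25.9, 40.8, 18.2, 84.0 and 53.7 at 24 months (ENSMUSG00000034777, chr6:83711264-83738313, plus strand). Its log2 fold change was 4.20 (SE 0.77, edgeR adjusted p = 0.0517), with the smallest p after Flnc, and leaving out each library gave adjusted p of 0.0274 to 0.143 in edgeR. The count filter took its mean over all 31 libraries, the old males among them. Whether Vax2 would pass that filter without the old males was not determined. Gata2, a zinc finger factor of blood progenitors and of spinal V2b interneurons, was at 12.5, 8.51, 8.70 and 1.70 at 12 months and 55.4, 36.8, 19.0, 86.5 and 38.8 at 24 months (2.58 (SE 0.54, edgeR adjusted p = 0.07)). En1, the homeobox factor that marks V1 interneurons, was at 38.3, 44.7, 18.8 and 18.7 at 12 months and 90.5, 75.0, 68.8, 252 and 191 at 24 months (2.14 (SE 0.52, edgeR adjusted p = 0.112)). All old males lay above all 12-month males in these 3 genes. Lhx2 was at 8.01, 7.09, 8.70 and 3.41 at 12 months and 11.1, 17.1, 17.4, 40.8 and 32.8 at 24 months (1.81 (SE 0.40, edgeR adjusted p = 0.0773)) and Dmrt2 at 8.01, 17.0, 17.4 and 17.0 at 12 months and 37.0, 35.5, 28.5, 51.9 and 44.8 at 24 months (1.40 (SE 0.32, edgeR adjusted p = 0.0874)), likewise apart. The family as a whole had a median near 0: over the homeobox, GATA, T-box and DMRT factors, a list added after values were seen, 46 of 84 tested members had a log2 fold change above 0, 9 of them with an unadjusted p under 0.05, 2 had such a p in the lower direction, and the median log2 fold change was 0.06. The same shares over all genes were 53.9% above 0, 6.28% and 5.89%. Of the 84, 5 were apart between ages on the higher side and 0 on the lower, beside 2.7% and 1.94% of all genes. These 5 are the factors given above. They were chosen after their values were seen, so that their separation is not a further result. Markers of spinal inhibitory and excitatory interneurons went the other way from the 5 named factors, with 7 of 7 below 0, no p under 0.05 and a median of -0.23. Without 12-month replicate 1, 6 of 7 were below 0, 2 had such a p on the lower side, beside 3.26% of all genes, and the median was -0.40. Without both libraries that stood apart, 6 of 7 were below 0, 3 had such a p on the lower side, beside 3.15% of all genes, and the median was -0.39. Among the old males, replicate 4 was the highest for these 5 factors and for Flnc. Over the whole family of 84 the highest library was replicate 2 for 26 genes, replicate 4 for 18, replicate 1 for 17, replicate 5 for 16 and replicate 3 for 7. Of the 38 axon injury genes 22 were highest in replicate 5 and 12 in replicate 4, and all 15 microglial markers were highest in replicate 1. Replicate 4 had a total of 16976430 counts and the strongest slope toward long transcripts of the 9 libraries, 0.0806.

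**Figure D4:**
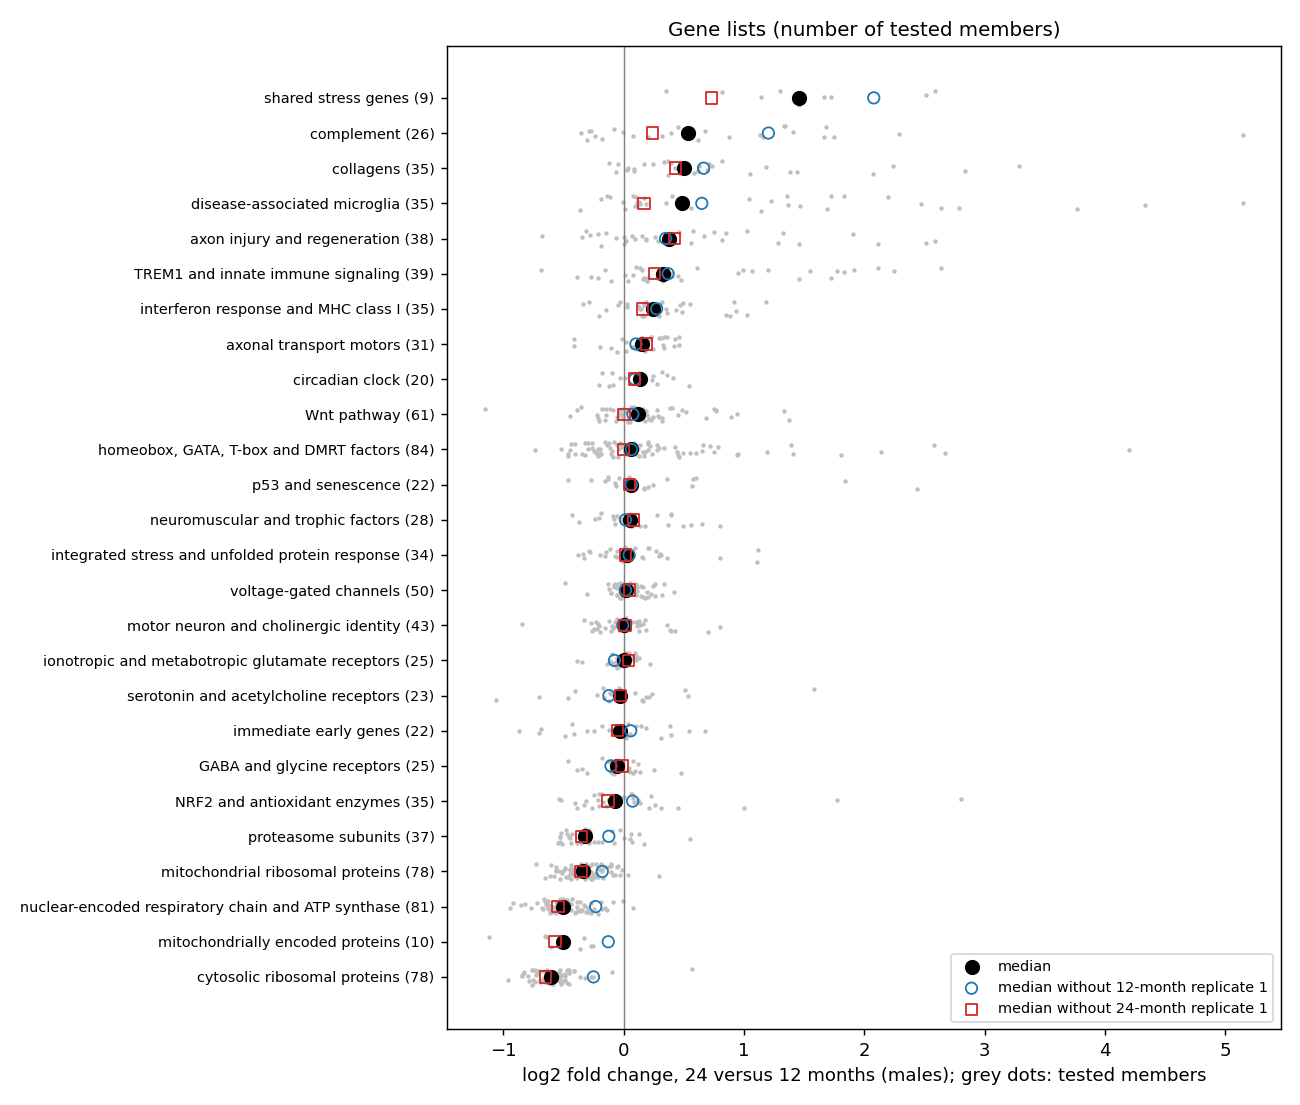
Log2 fold changes (24 versus 12 months, males, x axis) of 26 gene lists, with the number of tested members in brackets. Grey dots are members, black dots the list medians, blue circles the medians without 12-month replicate 1 and red squares those without 24-month replicate 1. Medians of ribosomal proteins and of the respiratory chain move toward 0 without the first of these libraries, and those of complement, shared stress and disease-associated microglial genes move toward 0 without the second.

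On the lower side, the 12 genes chosen by the same rule had log2 fold changes of -0.96 to -0.29 and edgeR adjusted p of 0.0700 to 0.112. All 12 were called by the DESeq2 Wald test and 11 by voom. Several serve mitochondria and protein synthesis. Sccpdh, a protein related to saccharopine dehydrogenase, gave the narrowest groups, at 3862, 3586, 3747 and 3710.1 at 12 months and 3372, 2955, 3054, 2887 and 2984 at 24 months (-0.29 (SE 0.06, edgeR adjusted p = 0.07)), and DESeq2 gave it an adjusted p of 1.62e-05. Praf2, a membrane protein of the endoplasmic reticulum and vesicles, was at 2478, 1808, 1728 and 1924 at 12 months and 1492, 1410.2, 1423, 1210.0 and 1351 at 24 months (-0.53 (SE 0.11, edgeR adjusted p = 0.07)). Dnajc15, a co-chaperone of the mitochondrial inner membrane, was at 3229, 2618, 3042 and 2506 at 12 months and 2254, 2099.6, 2317, 2117 and 2305 at 24 months (-0.36 (SE 0.08, edgeR adjusted p = 0.07)). The rule fixed in advance that the ages of these 3 did not overlap. The complex I subunit Ndufb2 was at 7878, 3564, 3806 and 3156 at 12 months and 2805, 2438, 2559, 2336 and 2597 at 24 months, where 12-month replicate 1 was more than 2 times the next. Its log2 fold change was -0.85 (SE 0.19, edgeR adjusted p = 0.0874) and, without that library, -0.47. 2410015M20Rik, a subunit of the cristae complex MICOS, was at 1855 to 3859 at 12 months and 1363 to 1593 at 24 months, with log2 fold changes of -0.82 and -0.58 in the same fits. The ribosomal protein gene Rpl3 was at 12321, 8748, 9965 and 9499.7 at 12 months and 7780.2, 8014, 8103, 8155 and 7454 at 24 months (-0.36 and -0.26). The mitochondrial ribosomal genes Mrpl49 (-0.39) and Chchd1 (-0.84), the initiation factor Eif3m (-0.61), the polymerase subunit Polr2j (-0.74), the pseudogene Rpl15-ps2 (-0.96) and Gm2464 (-0.77) made up the 12. In all 12 the highest of the 12-month values was that of replicate 1, and all 12 kept an unadjusted edgeR p under 0.05 without it. As on the higher side, that fit and the calls of the other tests are not independent of the choice of these 12. In all, 8 of the 12 share exon sequence with another gene, among them Ndufb2, Rpl3 and Praf2, and reads of Rpl15-ps2 may belong to other copies.

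The families of these genes shared the direction. Of 81 tested nuclear genes of the respiratory chain and ATP synthase, 80 were below 0 with a median of -0.50, and 32 had an unadjusted p under 0.05, beside 5.89% of all genes. Without 12-month replicate 1, 7 had such a p, beside 3.26% of all genes in that fit, and the median was -0.23. Of 78 cytosolic ribosomal protein genes 77 were below 0 with a median of -0.60, and -0.25 without that library, where 8 had a p under 0.05 in place of 49. The median of 78 mitochondrial ribosomal protein genes went from -0.34 to -0.18, and that of 37 proteasome subunits from -0.32 to -0.12. The medians thus stayed below 0 but moved by over 1.5 times without this library. These 4 lists were added after values were seen. The summed normalized count of cytosolic ribosomal proteins was 599032, 292803, 298069 and 286494 at 12 months and 273475, 245955, 220451, 198051 and 297356 at 24 months, and that of the respiratory chain was 916827, 576707, 543674 and 543441 and 516194, 461052, 435946, 397889 and 582592. In both, replicate 5 of 24 months was within the range of the 12-month males. Genes with a p under 0.05 on the lower side had a median exon length of 2146 bases against 5651 on the higher side and 3917 over all tested genes. Without 12-month replicate 1 these medians were 3202 and 4907. The part of transcript length in the lower values was tested only by a fit with length offsets, in which the median was -0.31 for the respiratory chain and -0.44 for ribosomal proteins. The proteins encoded in the mitochondrial genome had 10 of 10 members below 0, no p under 0.05 and a median of -0.51, or -0.13 without that library.

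Genes that define a motor neuron overlapped between the ages, with 1 exception of 43, which was higher. Over all genes, 2.7% were apart on the higher and 1.94% on the lower side. Chat, given above library by library, overlapped as well. In the list of motor neuron and cholinergic identity, 22 of 43 tested members had a log2 fold change above 0, 1 of them with an unadjusted p under 0.05, 1 had such a p in the lower direction, and the median log2 fold change was 0.00. The same shares over all genes were 53.9% above 0, 6.28% and 5.89%. Mnx1, the homeobox factor of motor neuron fate, was at 919, 1533, 1529 and 1953 at 12 months and 1655, 1639, 1555, 1542 and 1984 at 24 months (0.18 (SE 0.19, edgeR adjusted p = 0.778)), and Slc5a7, the choline transporter, at 12026, 19759, 14807 and 18216 at 12 months and 13020.0, 15019, 17064, 19810.0 and 17056 at 24 months (0.02 (SE 0.16, edgeR adjusted p = 0.983)). Both overlapped. Rpl22, the gene whose protein carries the tag, was at 1749, 1645, 1649 and 1797 at 12 months and 1745, 1634, 1459, 1351 and 1824 at 24 months (-0.09 (SE 0.18, edgeR adjusted p = 0.89)). Spp1, which large motor neurons and, in disease, microglia make, was at 25548, 24959.9, 16823 and 21514 at 12 months and 18884, 20661, 19358, 21627 and 40556 at 24 months, with replicate 5 the highest of the old males (0.12 (SE 0.23, edgeR adjusted p = 0.885)). Wnt7a, a secreted Wnt that acts at synapses, was at 125, 150.3, 203 and 191 at 12 months and 211, 207, 212, 219 and 243 at 24 months (0.39 (SE 0.14, edgeR adjusted p = 0.257)) and was the 1 member of the identity list that was apart between ages.

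Receptors and channels gave few differences. Htr1b, an inhibitory serotonin receptor, was at 58.7, 123, 117 and 113 at 12 months and 68.4, 68.4, 74.4, 44.5 and 58.7 at 24 months (-0.71 (SE 0.20, edgeR adjusted p = 0.141)). The value of 12-month replicate 1 fell among the old males, and the other 3 of 12 months lay above all of them, so that without that library the log2 fold change was -0.91 with an unadjusted edgeR p of 4.03e-05 and an adjusted one of 0.0916. Htr1b shares exon sequence with D430036J16Rik. Ppp1r1c, an inhibitor of protein phosphatase 1, was at 99.6, 109, 103 and 105 at 12 months and 73.9, 133, 66.4, 64.3 and 78.6 at 24 months (-0.33 (SE 0.20, edgeR adjusted p = 0.541)), and Sfrp1, a secreted antagonist of Wnt, at 235, 273, 269.6 and 308 at 12 months and 257, 339, 223, 292 and 246 at 24 months (-0.00 (SE 0.16, edgeR adjusted p = 0.997)). Both overlapped. The median log2 fold change was -0.03 over 23 serotonin and acetylcholine receptors, 0.00 over 25 glutamate receptors, -0.05 over 25 GABA and glycine receptor and transport genes, and 0.02 over 50 voltage-gated channels. In each of these 4 lists at most 1 member had an unadjusted p under 0.05, beside 12.2% of all genes, and the edgeR test called no member of these lists.

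Among the neuronal lists other than axon injury, axonal transport had the most members with a small p. There, 25 of 31 tested members had a log2 fold change above 0, 7 of them with an unadjusted p under 0.05, 2 had such a p in the lower direction, and the median log2 fold change was 0.16. The same shares over all genes, for this list and those below, were 53.9% above 0, 6.28% and 5.89%. Trak2, which links mitochondria to kinesin, was at 417, 436, 591 and 426 at 12 months and 661, 597, 655, 718 and 587 at 24 months (0.46 (SE 0.12, edgeR adjusted p = 0.128)), and only 12-month replicate 3 reached into the old males. The kinesins Kif1b (0.34) and Kif3b (0.42) and the dynein heavy chain Dync1h1 (0.31) did not overlap between ages. The small subunits Dctn3 (-0.41) and Dynll1 (-0.41) were the 2 with a small p in the lower direction. Without 12-month replicate 1 the list had 2 members with a p under 0.05 on the higher and 0 on the lower side. The shares of all genes in that fit were 4.5% and 3.26%. Without 24-month replicate 1 they were 5.69% and 5.95%. For the circadian clock, 14 of 20 tested members had a log2 fold change above 0, 3 of them with an unadjusted p under 0.05, 0 had such a p in the lower direction, and the median log2 fold change was 0.14, with the repressor Cry2 in front (0.36), followed by the output factor Tef (0.28) and Per3 (0.54). In the fit without 12-month replicate 1, 16 of 20 were above 0, 1 on the higher and 0 on the lower side had such a p, and the median was 0.092. For neuromuscular and trophic factors, 16 of 28 tested members had a log2 fold change above 0, 2 of them with an unadjusted p under 0.05, 0 had such a p in the lower direction, and the median log2 fold change was 0.05, led by Csf1 (0.56), the fibroblast growth factor Fgf2 (0.50) and the synapse organizer Agrn (0.40). For the Wnt pathway, 38 of 61 tested members had a log2 fold change above 0, 4 of them with an unadjusted p under 0.05, 2 had such a p in the lower direction, and the median log2 fold change was 0.12, so that the share with a small p was near that of all genes (6.28% on the higher side). Without 12-month replicate 1, 40 of 61 were above 0, 1 on the higher and 2 on the lower side had such a p, and the median was 0.078, and without 24-month replicate 1, 34 of 61 were above 0, 3 on the higher and 1 on the lower side had such a p, and the median was 0.0054. Its antagonist Dkk2 had a log2 fold change of -1.15 and the ligand Wnt10a one of 0.52 (edgeR adjusted p = 0.194 and 0.266).

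Stress programs other than axon injury had medians near 0. Their counts stand beside 53.9% of all genes above 0. An unadjusted p under 0.05 was reached by 6.28% of all genes on the higher and 5.89% on the lower side. Without 12-month replicate 1 these 2 shares were 4.5% and 3.26%. For the integrated stress and unfolded protein response, 20 of 34 tested members had a log2 fold change above 0, 2 of them with an unadjusted p under 0.05, 2 had such a p in the lower direction, and the median log2 fold change was 0.03. The main chaperone of the endoplasmic reticulum, Hspa5, was lower without overlap, at 8034, 9117, 8202 and 8444 at 12 months and 6912, 7056, 7656, 6478 and 6449.6 at 24 months (-0.29 (SE 0.12, edgeR adjusted p = 0.329)), the disulfide isomerase Pdia4 was at -0.38, and the phosphatase subunit Ppp1r15a at 0.30. For immediate early genes, 11 of 22 tested members had a log2 fold change above 0, 1 of them with an unadjusted p under 0.05, 3 had such a p in the lower direction, and the median log2 fold change was -0.03. Apart from Jun, the nuclear receptors Nr4a1 (-0.70) and Nr4a3 (-0.87) had the smallest p and were lower in every old male. In the fit without 12-month replicate 1, 12 of 22 were above 0, 1 on the higher and 0 on the lower side had such a p, and the median was 0.06. For NRF2 and antioxidant enzymes, 15 of 35 tested members had a log2 fold change above 0, 4 of them with an unadjusted p under 0.05, 4 had such a p in the lower direction, and the median log2 fold change was -0.07. Without 12-month replicate 1, 18 of 35 were above 0, 4 on the higher and 1 on the lower side had such a p, and the median was 0.075. Cybb, the catalytic subunit of the phagocyte NADPH oxidase, was at 4.45, 5.67, 1.45 and 1.70 at 12 months and 53.6, 22.4, 10.3, 23.5 and 16.9 at 24 months (2.80 (SE 0.78, edgeR adjusted p = 0.141)) and did not overlap, the peroxiredoxin Prdx5 was at -0.52 and -0.19 without 12-month replicate 1, and the thioredoxin reductase Txnrd1 at 0.31. Serpinb1a, an elastase inhibitor, was at 322, 106, 75.4 and 112 at 12 months and 340.0, 230.2, 170.1, 311 and 314 at 24 months (0.82 (SE 0.49, edgeR adjusted p = 0.526)), and Cd63, a tetraspanin of late endosomes, at 1120.1, 626, 548 and 539 at 12 months and 1405, 739, 650.2, 629 and 1105 at 24 months (0.35 (SE 0.32, edgeR adjusted p = 0.717)). In both the overlap came from 12-month replicate 1 alone.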

How the data were processed

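RNA on HA-tagged ribosomes of male Chat-Cre;RiboTag spinal cords was measured by RNA-seq. The authors trimmed reads, aligned them with HISAT2 to GRCm38 (Ensembl 93 per the labels), counted reads per gene with HTSeq and deposited raw counts per library. Tool versions and the strandedness of counting are not given in the sources used here. From these counts, genes that averaged 5 counts or more in 31 libraries (7 groups, 24 residual degrees of freedom) were tested with edgeR 4.0.16 in R 4.3.3 (TMM, quasi-likelihood, two-sided, prior count 0.125, Benjamini-Hochberg over 17481 genes, threshold 0.05). The single library of a 24-month-old female was in no test. Normalized counts are counts divided by the effective library size relative to its mean. Symbols and coordinates came from GENCODE M21 (GRCm38), which is another release than the one counted, and they were found for 54165 of 54232 identifiers. Promoters came from RefSeq (GRCm38.p6). The model was tested on simulated data.

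Named genes were the 12 with the smallest p in each direction among genes that averaged 50 counts or more and had ages that did not overlap, genes named by the study or earlier for these libraries, and the 3 members with the smallest p in each of 20 pathway lists. Some other genes are said to be chosen after their values were seen. Further list members, cell type markers and Rpl22 were named outside these rules without being marked so. The groups, lists and rules were chosen with earlier results of these data known, and 6 lists were added after values were seen. Lists are described by counts and medians, beside 20 lists of cell type markers. Results were recomputed with DESeq2 1.42.0 (size factors in edgeR, and its Wald test), limma 3.58.1 voom with quality weights, no filter, a minimum of 50, only the 9 libraries, a replicate block, the library total as a term, the higher range of totals alone, length offsets, robust estimation and each library left out. A fit without both libraries that stood apart was chosen after seeing the data. Same-numbered libraries of both ages correlated by 0.331, 0.0198, 0.254 and 0.249, and libraries of unlike number by -0.363 to 0.23. The labels do not say that the numbers pair animals, and they were not taken to. What same-numbered libraries share was not tested. No 2 libraries were so close that they could be 1 library deposited more than once. Some genes that the rules or lists hold are not reported here. Depth limits genes with few reads, for which intervals cover counting error only.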

Additional observations from a re-analysis of the deposited data

Results flagged for a closer look

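Each gene given library by library, and 6 summed lists, were examined for a value far from the rest of its age group. Of 132 groups examined, 31 held such a value, and chance alone flags about 1 in 20 groups of independent normal values, which genes of the same libraries are not. Replicate 1 of 12 months was far above its group for Flnc (31.1), Clec7a (6.23), C1qa (357), Col5a3 (14.2), Ndufb2 (7878), Serpinb1a (322) and Cd63 (1120.1), and for the sums over microglial markers (2681), cytosolic ribosomal proteins (599032) and the respiratory chain (916827). It was far below for Cdkn2b (41.8), Dmrt2 (8.01) and Htr1b (58.7). At 12 months, replicate 2 was low for Col1a1 (6.38), replicate 3 high for Trak2 (591) and replicate 4 high for Itgax (0.852, which is 1 read). Replicate 1 of 24 months was far above its group for Gpnmb (278), Clec7a (89.6), Trem2 (437), Tyrobp (274), C1qa (1944), C4b (801), Gfap (6800.1), Itgax (32.3) and Cst7 (52.7), and for the microglial sum (10652). Replicate 4 was high for Flnc (176) and Nlrc5 (47.0), replicate 2 for Ppp1r1c (133) and replicate 5 for Mnx1 (1984) and Spp1 (40556). All values are normalized counts.

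The single library of a 24-month-old female, which entered no comparison, was examined for 10 of the genes described in males and lay above every 12-month-old female in 8. It held 83.6 normalized counts of Flnc, 28.9 of Vax2, 59.3 of Gpnmb, 381 of Atf3, 526 of Sprr1a, 535 of Cdkn2a, 51.7 of Gata2 and 132 of En1. The highest of the 5 females of 12 months had 72.3, 6.37, 30.5, 150.2, 217, 197, 32.1 and 47.3 of these genes. Clec7a (22.8) and Abca1 (289) were not above them. Of these 8 genes, Atf3 and Sprr1a were higher in 1 of the 3-month-old females (634 and 1033), and Gpnmb in 2 of the 18-month-old females (77.3 and 72.4). The 10 genes were picked among those with higher values in old males. The share of all tested genes in which this library lay above the 12-month-old females was not determined. The 8 of 10 thus has no background to be read against, and with 1 library there is no test.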

How the results depend on the processing

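The number of genes called depended on the test. In place of 1 gene higher and 0 lower, the DESeq2 Wald test gave 92 and 62, and limma voom with quality weights gave 270 and 126 (with 1673 genes higher at an unadjusted p under 0.05). Without a filter 3 genes were higher, with length offsets 2, and with a mean count of at least 50, which removes Flnc, 0. DESeq2 size factors, robust estimation and a covariate for each library's total gave 1. The edgeR model of only the 9 libraries called 0 genes, with Flnc at 2.39 (adjusted p = 0.0939), and had 968 genes higher and 920 lower at an unadjusted p under 0.05. The higher range of totals called 0, with Flnc at 2.04 (adjusted p = 0.337) and 609 genes higher and 637 lower at an unadjusted p under 0.05. Leaving out each library gave 1 to 5 genes called higher and 0 to 2 lower, and 786 to 1179 higher and 569 to 1313 lower at an unadjusted p under 0.05. The counts of 4 higher and 2 lower came without 12-month replicate 4, those of 5 and 1 without 24-month replicate 1, 3 higher without 24-month replicate 3, 2 higher without 24-month replicate 2 or 12-month replicate 3, and the lower count of 569 without 12-month replicate 1. Without both libraries that stood apart, 1 gene was called, and 730 were higher and 549 lower at an unadjusted p under 0.05.

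With the replicate number as a block, on the libraries of both ages alone, 49 genes were called higher and 43 lower, and Flnc stayed called. The labels do not say that the numbers pair animals. Of 4 same-numbered pairs, 1 correlated by 0.0198 only. The others lay above all pairs of unlike number, which ran from -0.363 to 0.23. Whether the numbers mark a shared structure was not tested. Under the block, Sfrp1 was at 0.027 and Spp1 at -0.12, against the sign of their main values.

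Signs of other named genes near 0 also turned. Over the 9 fits without 1 library, the log2 fold change ran from -0.095 to 0.064 for Sfrp1, from -0.31 to 1.14 for Tmem119, from -0.64 to 1.19 for P2ry12, from -0.11 to 0.11 for Slc5a7, from -0.070 to 0.098 for Slc18a3, from -0.0044 to 0.25 for Prph, from -0.14 to 0.20 for Spp1 and from -0.0065 to 0.34 for Mnx1. Tmem119 and P2ry12 were lowest without 24-month replicate 1 and highest without 12-month replicate 1. Without both libraries that stood apart, P2ry12 was at -0.31, Tmem119 at -0.038 and Slc5a7 at -0.027. Slc5a7 was also at -0.090 in the higher range of totals, -0.15 in voom, -0.0048 without a filter and -0.025 with length offsets. Slc18a3 was at -0.16 in that range and Mnx1 at -0.0080 in voom. That covariate put Sfrp1 at 0.019. None of these genes was called in the main test, and the cause was not tested.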
